A study of Homo sapiens with 12 samples.

Results

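The subject is the set of genes whose messenger RNA moved in opposite directions when 2 EZH2-mutant B cell lymphoma lines were treated with EZH2 inhibitors. The treatment effect in KARPAS-422 was set against that in Pfeiffer, as the difference (CPI-169 minus DMSO in KARPAS-422) minus (GSK343 minus DMSO in Pfeiffer). This used 10 of the 12 RNA sequencing libraries of the series. KARPAS-422 had 3 libraries of cells given CPI-169 at 1.5 µM and 3 of cells given the vehicle, 0.1% DMSO. Pfeiffer had 2 libraries of cells given GSK343 at 1.5 µM and 2 given DMSO. All cells were collected after 4 days. RL, a line that the labels call unresponsive, had 2 DMSO libraries, whose levels are given as a description only. Per the labels, each line carries an activating change in the SET domain of EZH2, and KARPAS-422 and Pfeiffer respond to EZH2 inhibition. Each line is a single established culture, and effects of the line, of the compound and of the library series cannot be told apart. Whether replicates were grown separately is not in the labels, and the p-values then reflect only how these libraries vary. In a bulk culture, fewer cells making a transcript and less transcript per cell cannot be told apart.

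Of 63129 gene IDs, 18393 reached 1 FPKM in at least 2 of the 10 libraries and were tested. FPKM counts fragments relative to the length of the transcript and to all fragments mapped in that library. A gene is called opposite here when its change passed a limma adjusted p of 0.05 in KARPAS-422, in Pfeiffer and for the difference, with opposite signs in the lines. This held for 729 genes (3.96% of those tested), and 170 of them (0.924%) also changed at least 1.5-fold in each line on the log2(FPKM + 1) scale, on which every change below is given. These values chose the genes, so the members' own changes are a description.

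EZH2 is the catalytic subunit of Polycomb repressive complex 2, which places methyl groups on lysine 27 of histone H3 and so keeps genes silent. In germinal centre B cells it holds differentiation genes off while the cells divide. Much of what follows concerns 3 well-known programmes. E2F factors switch on the enzymes that make DNA at the start of S phase, and mitotic genes are switched on later in the cycle. SREBP factors switch on the enzymes of cholesterol and fatty acid synthesis. MYC acts with MAX, and the MXD proteins compete with it for MAX.

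The libraries differed in ways that touch these results. The FPKM sums ran from 371965 to 418285 in KARPAS-422 and from 526146 to 630387 in Pfeiffer. The GSK343 libraries stood further apart than any other replicate pair, their log2 values differing by 0.500 (root mean square), against 0.186 for Pfeiffer DMSO. The 7 B cell markers were detected in every library and summed to 1515 to 2712 FPKM. The T and NK cell marker list summed to 47.3 to 67.5 FPKM in KARPAS-422 and 309 to 423 FPKM in Pfeiffer, with KLRD1 listed at 0 in every library. Of the 15 found, CD2 was the only other one at 0 in both Pfeiffer DMSO libraries. With GSK343 no other was at 0 in both libraries, and the sum was not split by member. The epithelial and stromal list summed to at most 1.74 FPKM in KARPAS-422, to 141 and 142 FPKM in Pfeiffer DMSO and to 58.9 and 81.1 FPKM with GSK343; its part in the results was not tested. Myeloid and erythroid lists summed to at most 9.71 and 0.517 FPKM in the 10 libraries, with S100A8 and HBB listed at 0 in each. The mRNA of EZH2 itself was 44.4, 48.7 and 49.1 FPKM in KARPAS-422 DMSO and 41.5, 40.4 and 41.1 FPKM with CPI-169, a change of −0.20 that did not pass. In Pfeiffer it fell from 31.6 and 30.8 to 13.8 and 20.9 FPKM. The difference was 0.64 ± 0.20 (SE; limma with Benjamini-Hochberg adjusted p = 0.0289), and it did not pass without any single one of 6 of the other libraries.

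In KARPAS-422, 4755 genes rose and 4893 fell with CPI-169, 25.9% and 26.6% of the genes tested and 52.5% together. In Pfeiffer, 1925 rose and 2842 fell with GSK343, 10.5% and 15.5%, and 25.9% together. These shares of rises and falls are the backgrounds for every gene list below. The treatment effects differed between the lines for 7269 genes, 39.5% of those tested, with 4074 higher in KARPAS-422 (22.1%) and 3195 lower (17.4%). Most shared calls went the same way: 906 genes rose in both lines (4.93%) and 1093 fell in both (5.94%). Opposite genes numbered 483 that rose in KARPAS-422 and fell in Pfeiffer, 2.63% of the genes tested, and 246 that fell in KARPAS-422 and rose in Pfeiffer, 1.34%. Together they were 3.96% of the genes tested, which is the background for the opposite members of every gene list below. Of the genes that rose in KARPAS-422, 10.2% fell in Pfeiffer, against 15.5% of all genes. Of the genes that fell in KARPAS-422, 5.03% rose in Pfeiffer, against 10.5% of all genes. Opposite calls were thus fewer than calls in the same direction. Across the 18393 genes the changes in the lines correlated weakly and positively (Pearson's r = 0.24, Spearman's rho = 0.23); genes are not independent replicates, and this is a description.

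**Figure D1:**
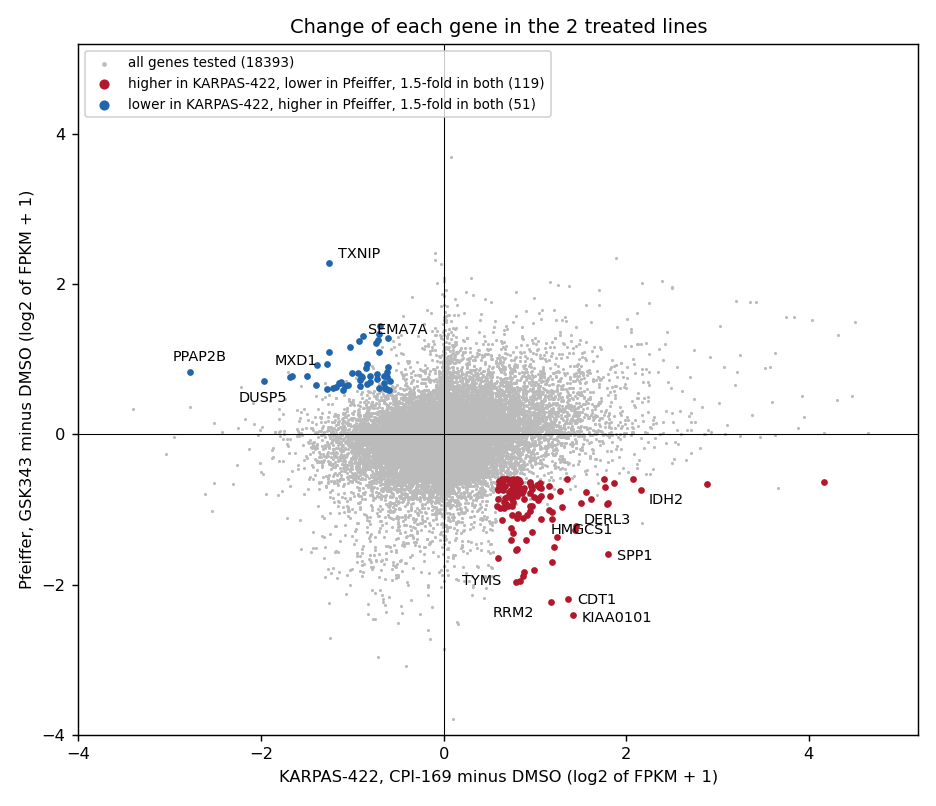
Change of each tested gene in KARPAS-422 (horizontal axis) and Pfeiffer (vertical axis), treated minus DMSO, in log2(FPKM + 1). Grey points are all 18393 genes and 6 lie beyond the axes; the 119 red and 51 blue points are opposite genes of at least 1.5-fold in both lines, and they fill the lower right and upper left corners.

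With the 1.5-fold minimum, 119 genes rose in KARPAS-422 and fell in Pfeiffer (0.647% of the genes tested) and 51 did the reverse (0.277%). In all 170, every treated library lay beyond every DMSO library in both lines, which held for 7.69% of all genes tested in the first direction and 5.5% in the other. The median change of the 119 was 0.83 in KARPAS-422 and −0.82 in Pfeiffer, and that of the 51 was −0.91 and 0.78; over all genes tested the medians were 0.01 and −0.04. Just inside the minimum stood PTPLAD2 and CISD3, with −0.59 in Pfeiffer, TOLLIP, with 0.59 in Pfeiffer, and CHD7, with −0.59 in KARPAS-422. Just outside stood SNX10 (0.58 in KARPAS-422), TRNAU1AP (−0.58 in Pfeiffer), RP11-187C18.2 and ZBTB21 (0.58 in Pfeiffer). The balance of the directions rested on the scaling. Of the 729 genes 66.3% rose in KARPAS-422, against 49.2% when the libraries were set to a common median and 48.5% after quantile normalization; with the 1.5-fold minimum these shares were 70%, 55.2% and 54.5%. Fitting each line alone left 34 and 6 opposite genes, since Pfeiffer then rests on 2 against 2 libraries and their own spread. The main fit shares a single spread per gene over all groups, and KARPAS-422 contributes most to it. Its replicates differed by 0.166 to 0.246 (root mean square), against 0.500 for the GSK343 libraries. The Pfeiffer p-values given here may therefore be too small. Weighting the libraries by their quality left 162 and 63. A fit without 1 Pfeiffer library leaves 1 in its group, which adds nothing to the spread. Without a GSK343 library, the distance between that pair no longer enters the spread. Calls in Pfeiffer then rest on the spread of the other groups, so counts from such fits only describe the fit. The library set mattered as well: the counts were 836 and 958 without GSK343 replicate 1, 759 and 304 without GSK343 replicate 2, 210 and 78 without Pfeiffer DMSO replicate 1 and 232 and 118 without Pfeiffer DMSO replicate 2. Without CPI-169 replicates 1 and 3 in turn they were 337 and 153 and 317 and 160. Of the 119 and 51 genes, between 77 and 118 and between 27 and 51 were still opposite without any one library.

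**Figure D2:**
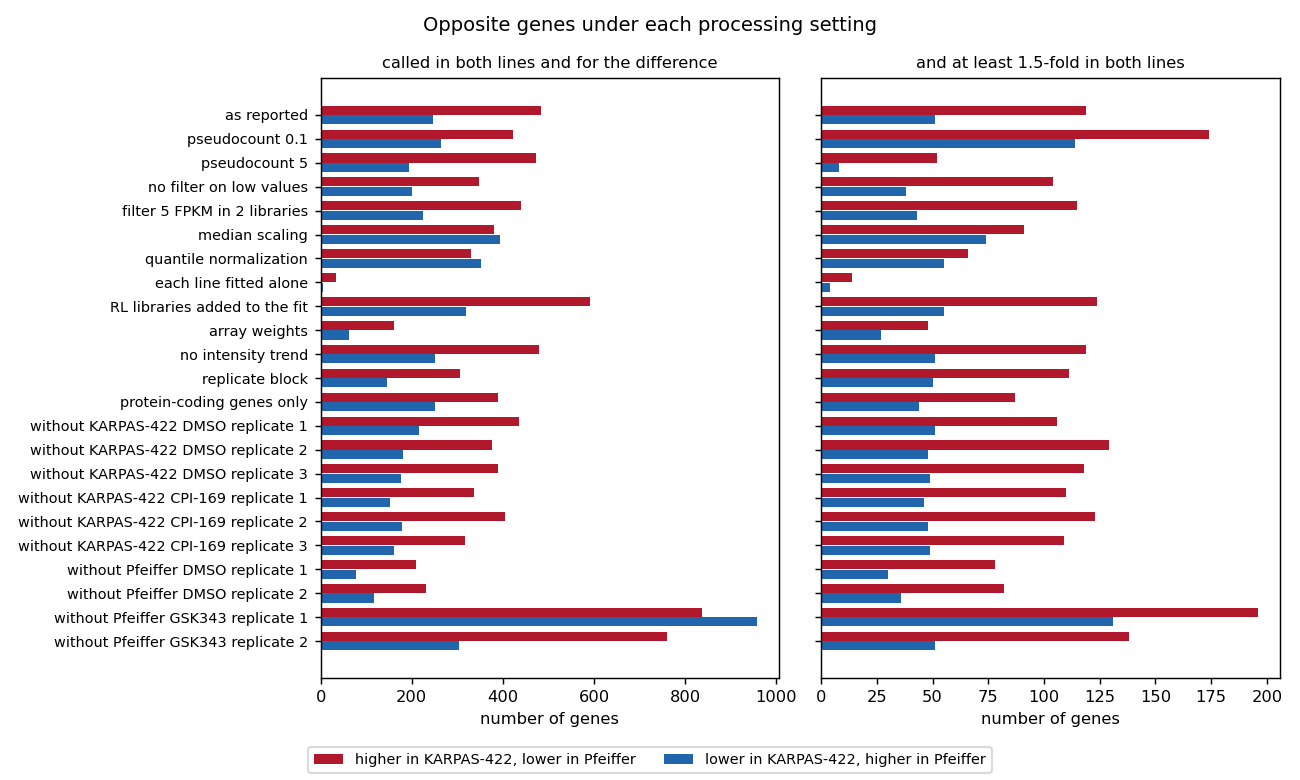
Number of opposite genes under each processing setting, without a fold minimum (left) and with 1.5-fold in both lines (right), red for higher in KARPAS-422 and blue for lower. The bars are shortest with each line fitted alone (34 and 6). They are longest without GSK343 replicate 1, a fit with 1 GSK343 library and no spread within that group.

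Genes for making DNA fell throughout in Pfeiffer and were divided in KARPAS-422. All 40 members of the DNA replication list fell in Pfeiffer (background 15.5%). In KARPAS-422 12 rose and 12 fell, shares near the backgrounds of 25.9% and 26.6%. Since all fell in Pfeiffer, the 12 that rose in KARPAS-422 were all opposite genes (30% of the list, background 3.96%). The median change of the list was 0.05 in KARPAS-422, which was no longer above 0 after median scaling, and −1.50 in Pfeiffer, and the difference was called for 37 of the 40, all higher in KARPAS-422 (background 22.1%). Both GSK343 libraries showed the fall, with medians of −1.41 and −1.68. The list held 8 opposite members without KARPAS-422 DMSO replicate 3 or CPI-169 replicate 2, and 11 without KARPAS-422 DMSO replicate 2.

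CDT1, which loads the MCM helicase at replication origins, had 5.33, 6.55 and 6.18 FPKM in KARPAS-422 DMSO and 15.6, 20.1 and 15.6 FPKM with CPI-169. In Pfeiffer it went from 30.5 and 38.2 FPKM in DMSO to 7.47 and 6.001 FPKM with GSK343. The treated libraries were thus all above DMSO in KARPAS-422 and all below it in Pfeiffer, and the changes were 1.36 ± 0.13 and −2.19 ± 0.16 (SE; limma with Benjamini-Hochberg adjusted p = 2.79e-05 and 3.45e-05). RRM2, the small subunit of ribonucleotide reductase, which makes deoxynucleotides, had 8.44, 10.6 and 9.25 FPKM in KARPAS-422 DMSO and 21.2, 23.3 and 22.7 FPKM with CPI-169. Its Pfeiffer values were 60.6 and 54.5 FPKM in DMSO and 15.1 and 8.54 FPKM with GSK343. TYMS, thymidylate synthase, rose from 20.0, 23.0 and 20.3 to 36.5, 38.04 and 37.6 FPKM in KARPAS-422 and fell from 43.2 and 44.2 to 12.7 and 8.67 FPKM in Pfeiffer. C18orf56, whose locus overlaps that of TYMS, changed by 0.82 and −1.07, and reads of the pair cannot be told apart here.

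KIAA0101, which binds the replication clamp PCNA, had 17.4, 23.2 and 20.8 FPKM in KARPAS-422 DMSO, 61.6, 50.7 and 55.6 FPKM with CPI-169, 94.9 and 83.0 FPKM in Pfeiffer DMSO and 22.3 and 11.3 FPKM with GSK343. It had the widest difference of the 14 genes named for size in this direction, 3.82 ± 0.33 (SE; limma with Benjamini-Hochberg adjusted p = 4.89e-05). POLD1, the catalytic subunit of DNA polymerase delta, changed by 0.81 and −1.53. TCF19, a gene switched on around the start of S phase, changed by 1.19 and −1.70, from 4.57, 5.18 and 4.26 to 12.5, 11.8 and 11.4 FPKM in KARPAS-422 and from 25.9 and 28.9 to 7.81 and 7.65 FPKM in Pfeiffer. PCNA itself rose by 0.47 and fell by 2.04. FAM111B, a protease gene, changed by 1.45 and −1.22. TIMELESS, a replication fork protein, RAD54L, a recombination repair protein, and CDCA7 were also among the 119, with changes of 0.97 and −1.30, 0.88 and −1.83, and 0.87 and −1.88; they were chosen after their values were seen. DDB2, a damage recognition protein and p53 target, changed by 0.69 and −0.83. Calls for CDT1, RRM2, TYMS, KIAA0101, POLD1, TCF19 and DDB2 held without any one of the 10 libraries. With each line fitted alone, those for RRM2, KIAA0101, POLD1 and DDB2 were lost.

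**Figure D3:**
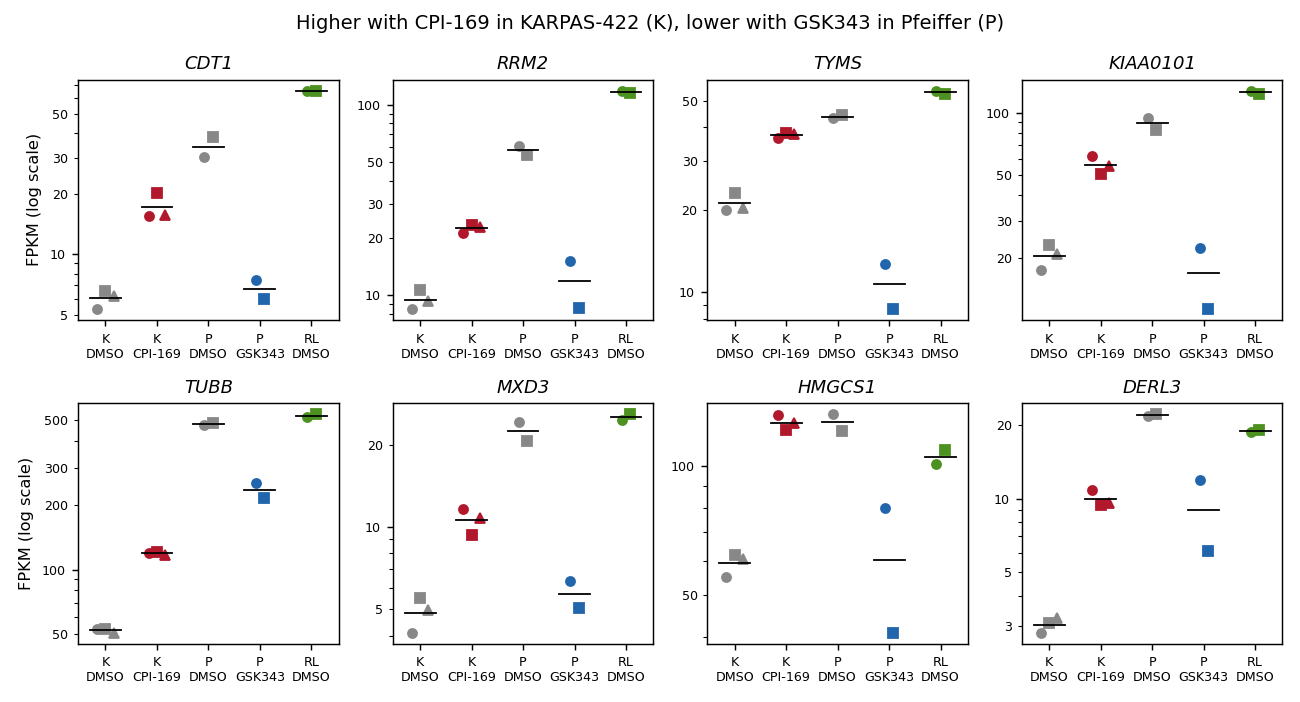
FPKM (log scale) of 8 genes that rose in KARPAS-422 (K) and fell in Pfeiffer (P), 1 point per library with symbols for replicates 1 to 3 and a bar at the mean; RL DMSO is shown beside them. For CDT1 the KARPAS-422 points climb from 5.33 to 6.55 FPKM up to 15.6 to 20.1 FPKM, while the Pfeiffer points drop from 30.5 and 38.2 to 7.47 and 6.001 FPKM.

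Promoter sequences from RefSeq (GRCh38.p14, 250 bases before to 50 after the start) were matched for 9321 tested genes, 68 of the 119 and 29 of the 51. The E2F letters TTTCCCGC, read on both strands, were in 7 of the 68 promoters (10.3%), in 1 of the 29 (3.45%) and in 2.61% of all 9321. Without the 1.5-fold minimum they were in 14 of 269 promoters of opposite genes higher in KARPAS-422 (5.2%) and in 2 of 162 of those lower (1.23%). The windows below show those 8 stretches, because CDT1 and TYMS are among them; the letters are in capitals, the build is GRCh38.p14 and each is written 5′ to 3′ on the gene's strand.
CDT1 (chr16:88803728-88803787, plus strand): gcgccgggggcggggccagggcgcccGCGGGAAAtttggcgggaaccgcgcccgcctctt
TYMS (chr18:657588-657647, plus strand): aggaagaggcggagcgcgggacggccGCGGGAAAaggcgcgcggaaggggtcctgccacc
CDCA7 (chr2:173354781-173354840, plus strand): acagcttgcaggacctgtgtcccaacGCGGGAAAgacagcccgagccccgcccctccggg
MMAB (chr12:109573634-109573693, minus strand): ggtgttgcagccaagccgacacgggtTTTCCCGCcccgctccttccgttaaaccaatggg
PM20D2 (chr6:89145944-89146003, plus strand): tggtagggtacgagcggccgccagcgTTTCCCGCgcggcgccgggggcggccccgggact
PRPS2 (chrX:12791374-12791411, plus strand): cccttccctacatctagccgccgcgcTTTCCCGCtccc
SLAIN1 (chr13:77697449-77697508, plus strand): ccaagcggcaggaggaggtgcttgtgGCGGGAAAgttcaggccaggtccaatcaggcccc
TBC1D13 (chr9:128787208-128787252, plus strand): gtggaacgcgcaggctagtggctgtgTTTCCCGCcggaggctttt
The first 7 genes rose in KARPAS-422 and fell in Pfeiffer, and TBC1D13 did the reverse. PRPS2 makes the precursor of nucleotide synthesis. The letters TTTGAA, the cell cycle homology region of mitotic promoters, were in 2.94% of the 68 promoters, against 9.58% of all and 16.8% of the promoters of genes that fell in Pfeiffer without being opposite. CCAAT boxes were in 50% of the 68, 27.6% of the 29 and 37.3% of all. Without the 1.5-fold minimum they were in 39.4% of promoters of opposite genes higher in KARPAS-422 and 36.4% of those lower. Among genes that fell in Pfeiffer without being opposite, 43.4% of promoters had them. GC boxes (GGGCGG) were in 80.9%, 62.1% and 69.3%. The E-box CACGTG was in 7.35%, 13.8% and 10.3%. The E2F letters TTTCCCGC were in 3.81% of promoters of genes that fell in Pfeiffer without being opposite. A second E2F form, TTTGGCGC, was in 3.17% of the same promoters, in 1.47% of the 68 and in 1.11% of all. The shares of the 68 and of all promoters were 1.47% and 3% for the interferon-stimulated response element. For the NRF1 motif they were 2.94% and 2.40%, and for the cyclic AMP response element (TGACGTCA) 0% and 3.30%. They were 1.47% and 1.75% for the amino acid response element core (TGATGNAAN), 1.47% and 2.19% for ETS factors (ACCGGAAGT) and 7.35% and 5.37% for TATAAA. Both strands were read for each, and these matches describe the letters in the windows.

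Most mitotic genes fell in both lines, and further in Pfeiffer. Of 40 mitosis and cell cycle regulators, 39 fell in Pfeiffer and 29 fell in KARPAS-422, while 4 rose in KARPAS-422. The median changes were −0.64 and −1.79. The difference was called higher in KARPAS-422 for 34 of the 40 (background 22.1%) and lower for 0. MKI67, the proliferation antigen, fell by 0.39 in KARPAS-422 and by 2.00 in Pfeiffer. CCNB2 fell by 0.75 and 2.11, and PLK1, a mitotic kinase, by 0.71 and 1.90. The 4 opposite members (10%, background 3.96%) were E2F2 and E2F8, CCNE1 and CDC25B. E2F2, an activating E2F factor, rose from 3.29, 3.28 and 2.64 to 4.54, 5.01 and 4.52 FPKM in KARPAS-422 and fell from 3.40 and 4.07 to 0.755 and 0.770 FPKM in Pfeiffer. E2F8, a repressing E2F factor, changed by 0.38 and −1.77. CCNE1, the cyclin that starts S phase, changed by 0.34 and −0.54, and CDC25B, a phosphatase that activates cyclin-dependent kinases, by 0.23 and −0.65. These last 2 lost the call in 7 and 6 of the 10 fits that left out 1 library. E2F1 itself fell in both lines, by 0.56 and 1.79. In the list of cyclin D genes and CDK inhibitors, 2 of 13 rose and 6 fell in KARPAS-422, 1 rose and 4 fell in Pfeiffer, and 0 were opposite.

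Replication-dependent histone genes, which package newly made DNA, rose for 16 of 21 members in KARPAS-422, and 7 rose and 5 fell in Pfeiffer. The opposite member was HIST1H1D, at 0.0359, 0 and 0.0379 FPKM in KARPAS-422 DMSO and 0.448, 0.294 and 0.314 FPKM with CPI-169, with a fall of 0.57 in Pfeiffer, and its call was lost in 8 of the 10 fits that left out 1 library. HIST1H1B, HIST1H1E, HIST1H3B and HIST1H4C fell in Pfeiffer, by 1.88, 1.51, 1.61 and 1.18, with changes of 0.31, 0.37, 0.10 and −0.26 in KARPAS-422 that did not pass.

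Most cholesterol genes rose in KARPAS-422. Of 24 members of the synthesis and uptake list, 19 rose and 1 fell in KARPAS-422, and 6 fell in Pfeiffer. The median changes were 0.97 and −0.63, and the difference was called higher in KARPAS-422 for 22 of 24 (background 22.1%). The opposite members numbered 4 (16.7%, background 3.96%). HMGCS1, HMG-CoA synthase, an early enzyme of the pathway, rose from 55.3, 62.1 and 60.8 to 131, 121 and 126 FPKM and fell from 132 and 121 to 79.8 and 40.9 FPKM. FDPS, farnesyl diphosphate synthase, changed by 0.94 and −1.02. HMGCS1 lost its call without Pfeiffer DMSO replicate 1, and FDPS without either Pfeiffer DMSO library.

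The Pfeiffer side rested on 1 library. In GSK343 replicate 2 the list had a median of −1.05, and in replicate 1 it had −0.17. Each of these medians is of 1 library, and calls made with 1 GSK343 library would rest on the spread of the other groups. Without Pfeiffer DMSO replicate 1 or 2, 0 and 1 members remained opposite, and with each line fitted alone 0 did. The difference itself was called for 17 to 22 members in the 10 fits without 1 library. INSIG1, which retains SREBP in the endoplasmic reticulum, changed by 2.50 in KARPAS-422 and by −0.38 in Pfeiffer, where it did not pass. Of 11 fatty acid synthesis genes, 9 rose in KARPAS-422, and 1 rose and 2 fell in Pfeiffer. The opposite members (18.2%, background 3.96%) were ACACA, acetyl-CoA carboxylase (0.43 and −0.42), and ELOVL5, an elongase (0.40 and −0.35). The call for ELOVL5 was lost in 8 of the 10 fits without 1 library. FASN, fatty acid synthase, changed by 2.57 and −0.13, and the latter did not pass. FABP5, a fatty acid binding protein, rose from 2.87, 3.45 and 4.46 to 13.9, 11.4 and 13.7 FPKM and fell from 48.8 and 40.8 to 28.1 and 20.8 FPKM; 4 of its pseudogenes moved with it and share its sequence. IDH2, the mitochondrial isocitrate dehydrogenase, rose by 2.17 and fell by 0.74, from 69.0 and 79.0 to 60.2 and 31.8 FPKM in Pfeiffer. FABP5 and IDH2 were chosen after their values were seen.

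**Figure D4:**
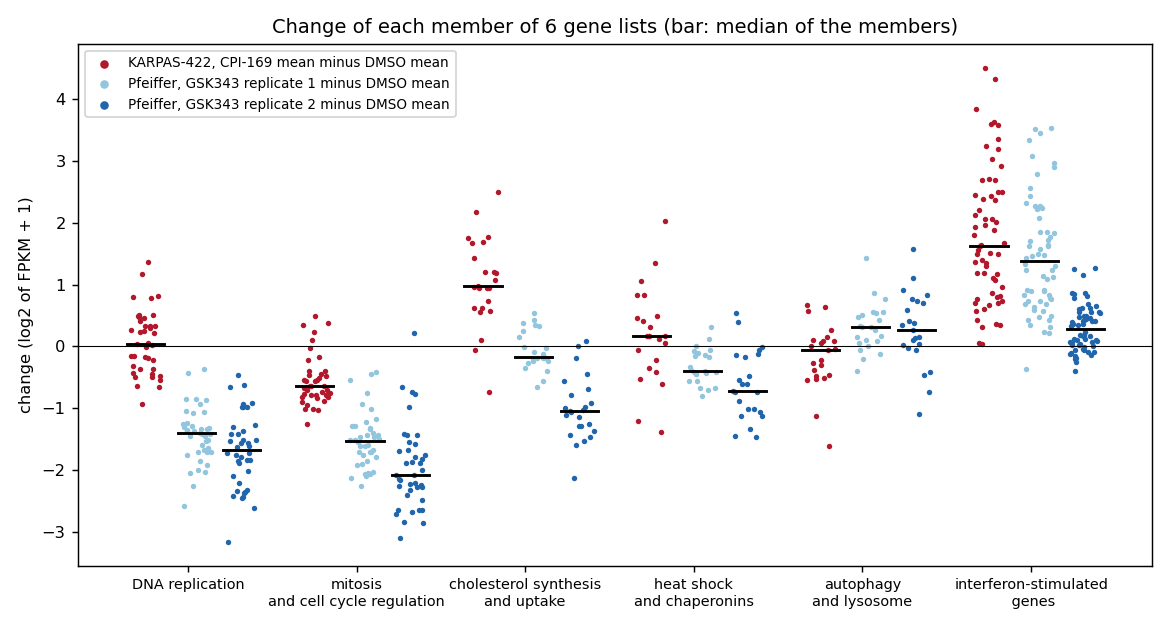
Change (log2 of FPKM + 1) of each member of 6 gene lists: red for CPI-169 in KARPAS-422, light and dark blue for GSK343 replicates 1 and 2 in Pfeiffer, each against the DMSO mean of its line, with a bar at the median. DNA replication sits near 0 in KARPAS-422 (median 0.05) and low in both GSK343 libraries (−1.41 and −1.68), while cholesterol genes and interferon-stimulated genes differ between the GSK343 libraries (−0.17 and −1.05, and 1.38 and 0.28).

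Of 23 heat shock and chaperonin genes, 8 rose and 5 fell in KARPAS-422 (backgrounds 25.9% and 26.6%), and 1 rose and 13 fell in Pfeiffer (10.5% and 15.5%), with medians of 0.17 and −0.58. The 13 became 6 without either Pfeiffer DMSO library. The difference was called higher in KARPAS-422 for 17 members and lower for 3 (backgrounds 22.1% and 17.4%). HSP90AA1, the inducible HSP90, rose from 89.7, 101 and 105 to 191, 162 and 174 FPKM and fell from 314 and 319 to 215 and 171 FPKM. HSP90AB1, the constitutive HSP90, changed by 0.31 and −0.43, AHSA1, an HSP90 co-chaperone, by 0.46 and −0.48, and CCT5, a chaperonin subunit, by 0.42 and −0.78. These are the 4 opposite members (17.4%, background 3.96%). The median of the list was −0.41 in GSK343 replicate 1 and −0.73 in replicate 2. AHSA1 and HSP90AB1 lost their calls without Pfeiffer DMSO replicate 1 or 2. HSPA8 changed by 2.02 in KARPAS-422 and by −0.50 in Pfeiffer, where it did not pass. Of 21 members of the endoplasmic reticulum's unfolded protein response, 3 rose and 6 fell in KARPAS-422, 6 fell in Pfeiffer and 1 was opposite (4.76%, background 3.96%). That member, PDIA4, a protein disulfide isomerase, changed by 0.73 and −0.65. DERL3, which serves degradation of misfolded proteins and is abundant in plasma cells, rose from 2.82, 3.08 and 3.24 to 10.8, 9.45 and 9.63 FPKM and fell from 21.9 and 22.2 to 11.9 and 6.08 FPKM. It was the opposite member of the 20 plasma cell genes, of which 7 rose and 1 fell in KARPAS-422 and 3 rose and 4 fell in Pfeiffer.

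Among the other genes named for size, SPP1, which encodes the secreted protein osteopontin, went from 0.329, 0.332 and 0.380 to 3.91, 3.06 and 4.16 FPKM in KARPAS-422 and from 16.6 and 16.6 to 5.77 and 4.01 FPKM in Pfeiffer. The changes were 1.80 ± 0.13 and −1.60 ± 0.16 (SE; limma with Benjamini-Hochberg adjusted p = 4.16e-06 and 0.000135). After treatment the lines averaged 3.71 and 4.89 FPKM. TUBB, a beta tubulin, rose from 52.6, 52.6 and 50.5 to 120, 121 and 117 FPKM and fell from 477 and 487 to 255 and 216 FPKM. Its pseudogene TUBBP1 changed by 1.15 and −1.001 beside 1.19 and −1.03 for TUBB, and their reads may be shared. HAUS1 and HAUS4, subunits of the augmin complex that branches spindle microtubules, changed by 0.91 and −1.07 and by 0.74 and −1.24. ICAM2, an adhesion molecule that binds leukocyte integrins, changed by 1.19 and −1.13. GMFG, an actin regulator of blood cells, was at 0.0702, 0 and 0 FPKM in KARPAS-422 DMSO and 1.14, 1.37 and 1.61 FPKM with CPI-169, and fell in Pfeiffer from 30.2 and 27.9 to 17.5 and 5.16 FPKM; its call was lost without either Pfeiffer DMSO library. TMPO-AS1, an antisense transcript that cannot be separated from its partner's reads here, changed by 1.25 and −1.36.

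TXNIP, an inhibitor of thioredoxin and of glucose uptake, led the genes of the other direction when they were ranked by the smaller of their changes. It stood at 580, 649 and 623 FPKM in KARPAS-422 DMSO and 268, 242 and 262 FPKM with CPI-169. In Pfeiffer it stood at 4.73 and 5.53 FPKM in DMSO and 31.5 and 26.2 FPKM with GSK343. The groups do not overlap in either line, and treated Pfeiffer stayed far below treated KARPAS-422. The difference was −3.54 ± 0.16 (SE; limma with Benjamini-Hochberg adjusted p = 2.88e-06) and held in each of the 10 fits without 1 library. Of the 23 glycolysis and glucose uptake genes, 9 rose and 5 fell in KARPAS-422 and 1 rose and 6 fell in Pfeiffer. The other opposite one was PFKP, a phosphofructokinase (0.30 and −0.41), which lost its call in 9 of 10 such fits.

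The MXD family was split. MXD1, a MAX partner found in differentiating cells, fell from 25.6, 23.4 and 23.6 to 6.80, 7.28 and 6.94 FPKM in KARPAS-422 and rose from 0.796 and 0.714 to 2.33 and 1.73 FPKM in Pfeiffer. MXD3, a MAX partner found in dividing cells, went the other way, from 4.10, 5.48 and 4.99 to 11.7, 9.34 and 10.8 FPKM and from 24.3 and 20.6 to 6.35 and 5.06 FPKM. The differences were −2.44 ± 0.15 for MXD1 and 2.80 ± 0.20 for MXD3 (SE; limma with Benjamini-Hochberg adjusted p = 8.38e-06 and 2.00e-05). MYC rose by 0.96 in KARPAS-422 and had a change of 0.15 in Pfeiffer that did not pass. Of the 30 MYC and ribosome biogenesis genes, 8 rose and 7 fell in KARPAS-422, near the backgrounds of 25.9% and 26.6%. In Pfeiffer 1 of the list rose and 6 fell (backgrounds 10.5% and 15.5%). MXD1 and BOP1, a ribosome assembly factor (0.54 and −0.44, call lost in 9 of 10 fits), were its opposite members.

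DUSP5, a phosphatase that switches off ERK in the nucleus, fell from 39.7, 39.2 and 37.7 to 9.17, 8.54 and 9.89 FPKM in KARPAS-422 and rose from 0.327 and 0.260 to 1.06 and 1.19 FPKM in Pfeiffer. It was the opposite member of 23 immediate early and ERK feedback genes. Of these, 4 rose and 13 fell in KARPAS-422, while 2 rose and 3 fell in Pfeiffer, with medians of −0.50 and 0.07. EGR1, an immediate early factor, fell in both lines, by 2.52 and 0.65. CRY2 and PER1, repressors of the circadian clock, fell in KARPAS-422 and rose in Pfeiffer, by −0.47 and 0.54 and by −0.24 and 0.37; PER1 lost its call in 8 of 10 fits without 1 library and CRY2 without Pfeiffer DMSO replicate 1. Of 13 clock genes, 3 rose and 5 fell in KARPAS-422 and 4 rose in Pfeiffer.

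ITGB2, the beta chain of leukocyte integrins, went from 193, 202 and 191 to 77.7, 69.2 and 76.1 FPKM in KARPAS-422 and from 2.06 and 2.60 to 3.70 and 7.45 FPKM in Pfeiffer, and its call was lost without Pfeiffer DMSO replicate 1. SEMA7A, a membrane semaphorin, fell from 33.4, 31.5 and 30.2 to 15.4, 16.5 and 16.7 FPKM and rose from 0.830 and 0.793 to 3.08 and 3.49 FPKM. ITGB1, the beta 1 integrin, changed by −0.49 and 0.32 and lost its call in 6 of 10 fits. It was the opposite member of 17 memory and activation genes, of which 7 rose and 3 fell in KARPAS-422 and 8 rose and 1 fell in Pfeiffer. LAPTM5, a lysosomal protein that lowers B cell receptor levels, fell from 194, 195 and 181 to 116, 118 and 113 FPKM and rose from 12.7 and 13.7 to 33.8 and 36.4 FPKM. ZEB1 and ZEB2, transcriptional repressors, changed by −0.92 and 0.73 and by −0.74 and 1.22. The chemokine receptors of the germinal centre zones moved against each other. CXCR5, the receptor for the follicle chemokine, fell from 3.59, 3.01 and 3.09 to 0.347, 0.417 and 0.194 FPKM in KARPAS-422 and rose from 38.7 and 43.9 to 71.2 and 70.2 FPKM in Pfeiffer. CXCR4, the dark zone receptor, rose from 0.414, 0.414 and 0.298 to 1.54, 1.23 and 1.42 FPKM and fell from 167 and 166 to 101 and 92.6 FPKM. LAPTM5, the ZEB genes and the receptors were chosen after their values were seen.

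**Figure D5:**
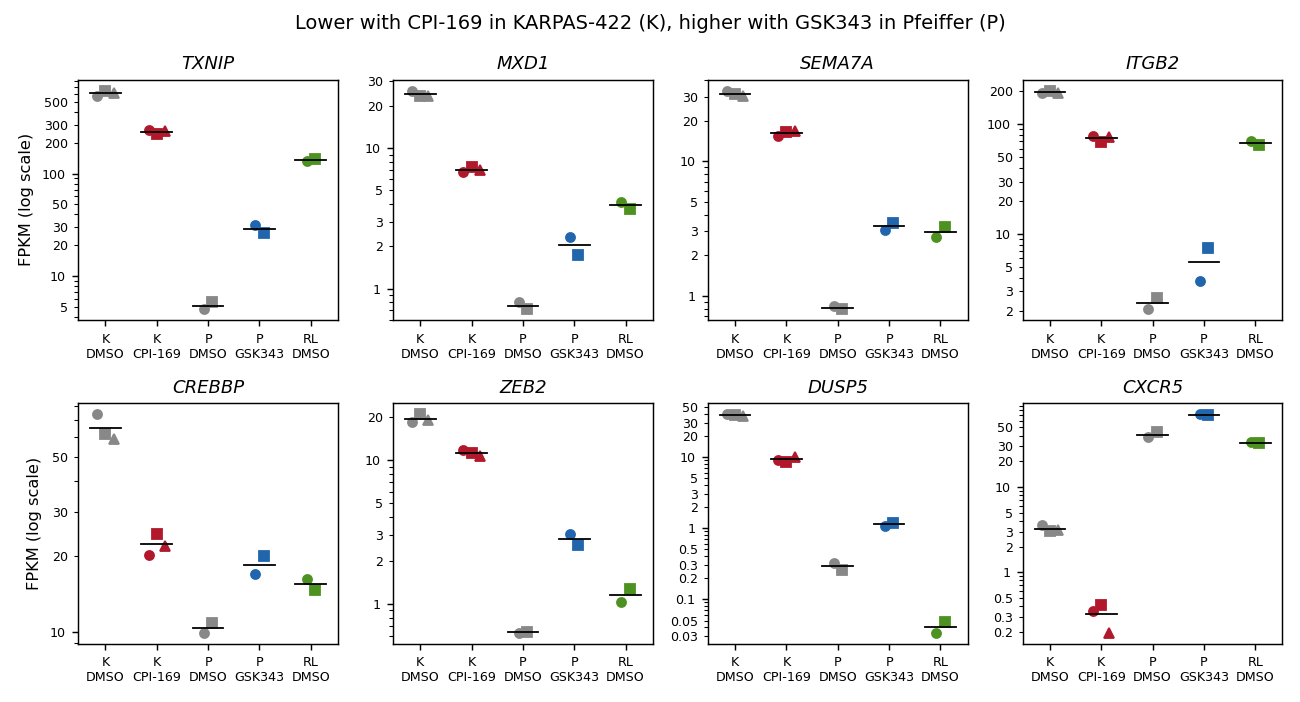
FPKM (log scale) of 8 genes that fell in KARPAS-422 (K) and rose in Pfeiffer (P), 1 point per library with symbols for replicates 1 to 3 and a bar at the mean, beside RL DMSO. TXNIP points drop from 580 to 649 FPKM down to 242 to 268 FPKM in KARPAS-422 and climb from 4.73 and 5.53 to 31.5 and 26.2 FPKM in Pfeiffer.

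Antigen presentation by MHC class II was divided within the family. Of 15 genes, 7 rose and 6 fell in KARPAS-422, and 5 rose in Pfeiffer. The 6 became 2 without KARPAS-422 DMSO replicate 2 or 3 or CPI-169 replicate 2, and the 5 became 1 without either Pfeiffer DMSO library. The opposite members were HLA-DOB, HLA-DQB2 and HLA-DMA. HLA-DOB, part of the regulator of peptide loading, fell from 32.9, 40.9 and 44.7 to 25.9, 23.9 and 26.6 FPKM and rose from 3.80 and 3.62 to 6.36 and 9.43 FPKM. HLA-DMA, part of the peptide loader, changed by −0.25 and 0.44, and HLA-DQB2 by −0.29 and 0.33; they lost their calls in 7 and 8 of 10 fits without 1 library. HLA-DPB1, a chain of the presenting molecule HLA-DP, rose in both lines, by 1.29 and 0.33. Reads of these similar genes may be split between them.

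The acetyltransferase gene CREBBP, whose product acetylates the same lysine that EZH2 methylates, fell from 73.8, 61.9 and 58.9 to 20.3, 24.6 and 22.0 FPKM in KARPAS-422 and rose from 9.89 and 10.8 to 17.0 and 20.0 FPKM in Pfeiffer. The changes were −1.50 ± 0.11 and 0.78 ± 0.14 (SE; limma with Benjamini-Hochberg adjusted p = 5.26e-06 and 0.00299). Its paralog EP300 changed by −0.65 and 0.24, and KDM6B, which removes the EZH2 mark, by −1.56 and 0.64; the Pfeiffer values of both did not pass. Of 15 genes of PRC2 and the lysine 27 enzymes, 2 rose and 8 fell in KARPAS-422 and 2 rose and 4 fell in Pfeiffer. Of 23 autophagy and lysosome genes, 3 rose and 10 fell in KARPAS-422, and 8 rose and 1 fell in Pfeiffer. The difference was called lower in KARPAS-422 for 10 and higher for 0 (background 17.4% lower and 22.1% higher). WIPI1, which binds the forming autophagosome, changed by −0.46 and 0.80, and ATG9A, a membrane protein of the same step, by −0.30 and 0.34, with the latter's call lost in 9 of 10 fits. SQSTM1, the autophagy receptor p62, fell by 1.61 in KARPAS-422 and had a change of 0.32 in Pfeiffer that did not pass.

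PDE6G, a phosphodiesterase subunit, changed by −1.25 and 1.10, RAB6B, a Golgi traffic GTPase, by −0.89 and 1.30, and SLC25A24, a mitochondrial carrier, by −0.84 and 0.94. UBE2H, a ubiquitin-conjugating enzyme, went from 62.4, 65.0 and 61.4 to 31.4, 31.7 and 33.8 FPKM and from 19.5 and 20.3 to 27.9 and 46.1 FPKM; its pseudogene UBE2HP1 changed by −0.85 and 0.89. PPAP2B, a lipid phosphate phosphatase, fell from 17.5, 20.1 and 20.9 to 1.72, 1.81 and 2.50 FPKM in KARPAS-422 and went from 0.334 and 0.291 to 2.02 and 0.816 FPKM in Pfeiffer. TBC1D8 (−1.03 and 1.17), UBE2H, UBE2HP1, PPAP2B and IZUMO4 (−1.01 and 0.82) lost their calls in 1 to 3 of the 10 fits, each time through the Pfeiffer comparison. The antisense transcript TNRC6C-AS1 changed by −1.27 and 0.94 and carries the same uncertainty of strand.

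The B cell lists held 1 or 2 opposite members each, against a background of 3.96%. Of 20 germinal centre genes, 12 rose and 2 fell in KARPAS-422 and 5 rose and 4 fell in Pfeiffer, and the opposite members were GCSAM, a germinal centre motility protein (1.18 and −0.57), and MME, the surface peptidase CD10 (0.28 and −0.61), 10% of the list. GCSAM lost its call in 3 of the 10 fits without 1 library and MME in 1. VPREB3, a pre-B cell receptor associated protein, rose from 105, 109 and 103 to 189, 184 and 184 FPKM and fell from 55.6 and 55.5 to 18.7 and 34.0 FPKM, the opposite member of 17 B cell identity genes (5.88%; 7 rose and 5 fell in KARPAS-422, and 5 rose and 1 fell in Pfeiffer). PIK3CD, the leukocyte PI3 kinase, changed by 0.31 and −0.39 among 23 B cell receptor genes (4.35% opposite; 8 rose and 7 fell, then 4 rose and 2 fell), and its call was lost in 6 of the 10 fits. MCL1, a survival protein, changed by −0.67 and 0.46 among 25 apoptosis regulators (4% opposite; 4 rose and 10 fell, then 4 rose and 4 fell), and lost its call in 3. Of 17 p53 targets, 9 rose and 1 fell in KARPAS-422 and 8 rose and 2 fell in Pfeiffer.

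Of 62 interferon-stimulated genes, 55 rose in KARPAS-422 (background 25.9%), and 22 rose and 1 fell in Pfeiffer (10.5% and 15.5%), with medians of 1.38 and 0.28 in GSK343 replicates 1 and 2. The size of the Pfeiffer rise thus differed between the GSK343 libraries. The difference was called higher in KARPAS-422 for 28 of the 62 and lower for 0 (backgrounds 22.1% and 17.4%). The median difference of the list was 0.85, against 1.34 without GSK343 replicate 1 and 0.18 without replicate 2. TRIM14, an antiviral signalling adaptor, was the opposite member, from 7.01, 5.98 and 5.83 to 11.8, 12.2 and 11.3 FPKM and from 8.49 and 9.15 to 6.64 and 6.47 FPKM, a change of −0.38 in Pfeiffer whose call was lost after median scaling and without either Pfeiffer DMSO library. MHC class I presentation (19 genes; 15 rose and 1 fell; 7 rose), NF-kappaB targets (21; 9 rose and 6 fell; 7 rose and 1 fell) and developmental Polycomb targets (9; 3 rose and 1 fell; 2 rose) had 0 opposite members; the counts in brackets give KARPAS-422 first and Pfeiffer after it. So did cytosolic ribosomal proteins (36; 5 rose; 0 changed), the respiratory chain (37; 3 rose and 5 fell; 5 fell), the ATF4 amino acid response (24; 3 rose and 7 fell; 3 fell) and aminoacyl-tRNA synthetases (19; 2 rose and 9 fell; 3 fell). Of the marker lists, 2 of 7 B cell genes rose and 3 fell in KARPAS-422 and 0 were called in Pfeiffer. Of 7 tested T and NK cell genes 4 rose and 1 fell, then 0 rose and 1 fell, and both tested myeloid genes rose in KARPAS-422. Of 5 epithelial and stromal genes 0 were called in KARPAS-422, and 2 rose and 1 fell in Pfeiffer. None of the marker genes was opposite.

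The starting levels of the lines were far apart for the opposite genes. In DMSO, 113 of the 119 genes that rose in KARPAS-422 and fell in Pfeiffer were lower in KARPAS-422 (95%, against 51.6% of all genes tested). Of the 51 that did the reverse, 46 were higher in KARPAS-422 (90.2%, against 48.4%). The median gap between the lines for the 119 was −1.96 in DMSO and −0.03 after treatment, and for the 51 it was 2.23 and 0.35, in log2(FPKM + 1), KARPAS-422 minus Pfeiffer. Gaps above and below 0 cancel in these medians. Without regard to sign, the median gap went from 1.96 to 0.81 for the 119 and from 2.45 to 1.25 for the 51. Over all genes tested it went from 0.97 to 0.80, so treated lines were not unusually close for these genes. The lines stood closer after treatment for 99 of the 119 and 42 of the 51 (83.2% and 82.4%, against 62.1% of all genes). The change and the starting level share the DMSO libraries, so these shares are a description with no test. A rise in the lower line and a fall in the higher one narrow the gap unless they overshoot. Given the starting levels, the choice of opposite genes thus fixes much of the share that stood closer. CXCR4 and CXCR5 show the exceptions of size: CXCR4 was 166 to 167 FPKM in Pfeiffer DMSO and stayed at or below 1.54 FPKM in KARPAS-422, and CXCR5 was lower in KARPAS-422 DMSO and fell further.

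By gene class, 84 of the 119 were protein-coding and 25 were pseudogenes (70.6% and 21.0%, against 64.6% and 20.6% of all genes tested), and 43 and 3 of the 51 were (84.3% and 5.88%). Pseudogenes of FABP5, FDPS, TUBB, HAUS1 and UBE2H numbered 4, 3, 2, 1 and 1 beside their opposite parent genes, so the count of separate events is smaller than the count of genes.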

How the data were processed

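RNA sequencing was done on 12 libraries of 3 lymphoma lines, and the 10 of KARPAS-422 and Pfeiffer were compared. The authors deposited 1 table of FPKM values per gene; the submitters' processing notes name hg19, TopHat 1.4.1 and Cufflinks. The version of Cufflinks, the annotation, the strand setting and the kit were not given in the sources used here. Per the labels' protocols cells were lysed in Trizol or RLT, and which library had which is not stated. Read totals were not used here, so the depth is unknown, and an exact 0 can be a failed estimate. Columns were matched to samples by title. Positions in sequence windows are GRCh38.p14; the FPKM table uses hg19.

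The filter asked for 1 FPKM or more in 2 or more of the 10 libraries, after 71 IDs with missing values were dropped. Values were log2(FPKM + 1), which understates changes of low genes. One limma model (version 3.58.1, R 4.3.3) covered the 4 groups, with an intensity trend and 6 residual degrees of freedom, and contrasts for each line and for their difference, Benjamini-Hochberg adjustment over 18393 genes and a threshold of 0.05. The deposited FPKM values were not rescaled. On simulated data for 18393 genes the fit called 23.9%, 89.6% and 100% of genes changed oppositely by 1.5, 2 and 4-fold in each line. The simulation gave each gene the same spread in all 10 libraries and changed only genes above a minimum level in both lines. The real GSK343 libraries stood further apart than the other replicates, so these rates need not hold for the Pfeiffer side.

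The members, the 35 gene lists and the tests were chosen with earlier results of these data known. Named by rule were the 14 opposite genes per direction with the largest smaller change (at least 1.5-fold in both lines, libraries not overlapping, at least 2 FPKM on average in the highest group), up to 4 opposite members per list, and EZH2, 64 genes in all, of which 62 are given, since the others are not reported here; other genes were named after their values were seen. Gene classes came from GENCODE 29, which matched 17737 tested genes. Of the alternatives, 12 changed 1 choice each and 10 left out 1 library each. Figures used matplotlib 3.10.9.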

Additional observations from a re-analysis of the deposited data

Results flagged for a closer look

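For all 62 genes that the text names by rule, the treatment effects of the lines were called different by limma with Benjamini-Hochberg adjustment over 18393 genes, which is what placed them here. All but EZH2 were also called in each line with opposite signs, and since calls chose them, their number is no result. The values below are the effect in KARPAS-422 minus that in Pfeiffer on the log2(FPKM + 1) scale.

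The widest differences above 0 were 3.82 for KIAA0101, 3.55 for CDT1, 3.41 for RRM2, 3.40 for SPP1, 2.89 for TCF19, 2.80 for MXD3, 2.76 for TYMS, 2.71 for DERL3, 2.70 for GMFG, 2.66 for FAM111B, 2.61 for TMPO-AS1 and 2.34 for POLD1. Then came 2.32 for ICAM2, 2.22 for TUBB, 2.20 for HMGCS1, 2.15 for TUBBP1, 2.15 for E2F8, 1.96 for FDPS, 1.92 for VPREB3, 1.91 for E2F2, 1.75 for GCSAM, 1.55 for HSP90AA1, 1.52 for DDB2 and 1.38 for PDIA4. Smaller ones were 1.20 for TRIM14, 1.19 for CCT5, 0.97 for BOP1, 0.97 for HIST1H1D, 0.94 for AHSA1, 0.89 for MME, 0.89 for CDC25B, 0.88 for CCNE1, 0.85 for ACACA, 0.75 for ELOVL5, 0.74 for HSP90AB1, 0.71 for PFKP, 0.70 for PIK3CD and 0.64 for EZH2.

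Below 0, the widest differences were −3.61 for PPAP2B, −3.54 for TXNIP, −2.68 for DUSP5, −2.44 for MXD1, −2.35 for PDE6G, −2.31 for ITGB2, −2.28 for CREBBP, −2.22 for TNRC6C-AS1, −2.20 for TBC1D8, −2.19 for RAB6B, −2.17 for SEMA7A, −1.82 for IZUMO4 and −1.78 for SLC25A24. Nearer to 0 stood −1.76 for UBE2H, −1.74 for UBE2HP1, −1.50 for HLA-DOB, −1.26 for WIPI1, −1.13 for MCL1, −1.01 for CRY2, −0.81 for ITGB1, −0.69 for HLA-DMA, −0.64 for ATG9A, −0.62 for HLA-DQB2 and −0.61 for PER1.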

How the results depend on the processing

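Across 12 other settings and 10 fits without 1 library, the differences of the named genes kept their sign. Of 68 list medians, 19 changed sign or reached 0 under at least 1 setting, among them DNA replication in KARPAS-422 (0.05) under median scaling and immediate early genes in Pfeiffer (0.07 to −0.07 without GSK343 replicate 1). The opposite genes higher and lower in KARPAS-422, 483 and 246, became 34 and 6 with each line fitted alone, 162 and 63 with array weights and 305 and 146 with the replicate number as a block; median scaling raised the latter to 393. With the 1.5-fold minimum, 119 and 51 became 14 and 4, 48 and 27, and 111 and 50 under the first 3 of these, 52 and 8 with a pseudocount of 5, and 66 and 55 after quantile normalization; a pseudocount of 0.1 gave 174 and 114. Without 1 library the counts ran from 210 to 836 and from 78 to 958, with the minimum from 78 to 196 and from 30 to 131. The genes called for the difference, 7269, ran from 5214 to 9774 there. Of the 28 genes named for size, 6 kept the call with each line fitted alone and 20 to 28 without 1 library. The EZH2 difference of 0.64 had an adjusted p of 0.0724 by limma with no filter on low values, where more genes were tested, and ran from 0.36 to 0.92 without 1 library. Median scaling moved the changes by −0.05 in KARPAS-422 and 0.05 in Pfeiffer.

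Replicate numbers did not pair the KARPAS-422 samples: same-numbered libraries had deviation correlations of −0.15, −0.25 and 0.16. In Pfeiffer, with 2 pairs, it was 0.14. The block lowered the calls for the difference to 6258, and all 28 genes named for size kept their call under this pairing.

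The limits are the 2 libraries per Pfeiffer group, the distance between the GSK343 libraries, and the unknown depth. A fit without 1 Pfeiffer library leaves 1 in its group, and its Pfeiffer calls rest on the spread of the other groups. Of the 61 opposite genes named by rule and given, 32 kept the opposite call in all 10 fits without 1 library, 17 lost it in 1 to 3 and 12 in 6 to 9. Only 8 of the 61 kept it in every one of the 12 other settings in which they were tested. Among the 8, TMPO-AS1, TXNIP and E2F2 were tested in 10, 11 and 11 of these settings. Of 34 lists, 31 had a Pfeiffer count and 10 a KARPAS-422 count that moved by over 1.5 times without 1 library. The PER1 difference did not pass with array weights (limma adjusted p = 0.0691). The causes were not tested.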

Other observations

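Other opposite genes of at least 1.5-fold in both lines, chosen after their values were seen, included the widest rise among the 119. RGCC, a regulator of the cell cycle, had 1.07, 1.21 and 1.66 FPKM in KARPAS-422 DMSO and 41.8, 37.6 and 41.8 FPKM with CPI-169, and 22.8 and 18.5 FPKM in Pfeiffer DMSO and 12.1 and 13.6 FPKM with GSK343. IGLL5, an immunoglobulin lambda-like gene, rose from 0.469, 0.268 and 0.504 to 9.61, 8.62 and 10.1 FPKM and fell from 306 and 277 to 210 and 160 FPKM, and its reads may be shared with the lambda locus. SOD1, the cytosolic superoxide dismutase, changed by 0.99 in KARPAS-422 and −0.84 in Pfeiffer, HADH, a fatty acid oxidation enzyme, by 1.56 and −0.76, and GSTO1, a glutathione transferase, by 1.87 and −0.65. In the other direction stood BCOR, a corepressor that works with BCL6 (−1.13 and 0.69), CHD7, a chromatin remodeller (−0.59 and 0.71), CBLB, a ubiquitin ligase that dampens receptor signalling (−0.84 and 0.68), and SMAD7, the inhibitor of TGF-beta signalling (−1.17 and 0.64). CD151, a membrane tetraspanin, fell from 7.84, 7.73 and 8.87 to 4.81, 4.57 and 5.71 FPKM and rose from 1.95 and 2.20 to 6.28 and 6.66 FPKM.

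The mean of the RL DMSO libraries was above the DMSO means of both other lines for 51 of the 119 genes higher in KARPAS-422 (42.9%, against 25.4% of all genes tested) and for 2 of the 51 lower in KARPAS-422 (3.92%). It was below both for 9 and 13 of them (7.56% and 25.5%, against 27.5%). CDT1 stood at 65.3 and 64.9 FPKM in RL, RRM2 at 119 and 115 FPKM, TXNIP at 133 and 139 FPKM and DUSP5 at 0.0337 and 0.0475 FPKM.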
